A study of Mus musculus with 8 samples.

Results

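Prefoldin is a chaperone built from 6 different subunits, and its 6 genes in the mouse, Vbp1, Pfdn5, Pfdn1, Pfdn2, Pfdn4 and Pfdn6, were followed here in AML12 cells, a line of mouse hepatocytes carrying a transforming growth factor alpha transgene. The subunits were found by their symbols among the 55401 genes of each table. All 6 were among the 12122 genes kept for the comparison, which are genes with a TPM (a transcript level scaled for length and to a fixed total per sample) of at least 1 in at least 4 samples. They were selected from measured values of the contrast between exposed and control cells, so that their differences between the groups are given as a description, without a test. Total RNA was sequenced from 4 control samples and 4 samples exposed for 1 h to an extremely low frequency weak magnetic field (ELF-WMF). The field came in pulses of 4 ms with a peak of 100 mG, at a frequency that stepped from 1 to 8 Hz and then began again. According to the study's methods, all cells came from one batch of culture, and the controls stood over a coil that was switched off, in a second incubator of the same model. The incubator and the field therefore cannot be told apart in these samples, and as the samples are not stated to come from separate cultures on separate days, every p-value measures only the spread between them.

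Prefoldin is shaped like a jellyfish, with a body of beta strands and one coiled-coil tentacle from each subunit. The tentacles catch newly made proteins before they are folded, above all actin and tubulin, and hand them to the ring-shaped chaperonin CCT (also called TRiC), in which they fold. Vbp1 (also known as prefoldin 3) and Pfdn5 are the alpha-type subunits at the centre of the body, and Pfdn1, Pfdn2, Pfdn4 and Pfdn6 are the beta-type subunits around them. Pfdn2 and Pfdn6 also belong to a second assembly, the prefoldin-like complex of Uri1, which works with the R2TP cochaperone in the assembly of RNA polymerases and other large complexes. Pfdn5 is also known as a protein that binds Myc, and Vbp1 as a partner of the von Hippel-Lindau protein.

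The stretch around the start of transcription was read for 5 of the 6 genes from RefSeq (GRCm38.p6). Of 5 short motifs looked for on both strands of the 300 bases around each start, the ETS core CCGGAA was held by 3 of these 5 promoters, and by 14.9% of the 32851 mouse promoters of the same length. Those of Pfdn2, Pfdn4 and Pfdn6, all beta-type subunits, are shown because they share it. The promoter of the remaining beta-type subunit, Pfdn1, was not read, so the types cannot be compared in full. Each stretch runs 5′ to 3′ on the strand of the gene, from 120 bases before the start to 30 bases after it, and the capitals mark the core or, in Pfdn6, its reverse complement TTCCGG.
Pfdn2, chr1:171345555-171345704, plus strand: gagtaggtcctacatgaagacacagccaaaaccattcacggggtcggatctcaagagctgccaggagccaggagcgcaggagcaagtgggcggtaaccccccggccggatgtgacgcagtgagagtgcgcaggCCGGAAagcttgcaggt
Pfdn4, chr2:170496308-170496457, plus strand: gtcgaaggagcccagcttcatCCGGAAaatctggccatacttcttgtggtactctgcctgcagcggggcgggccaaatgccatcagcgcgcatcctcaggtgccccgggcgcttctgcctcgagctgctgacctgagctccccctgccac
Pfdn6, chr17:33940314-33940463, minus strand: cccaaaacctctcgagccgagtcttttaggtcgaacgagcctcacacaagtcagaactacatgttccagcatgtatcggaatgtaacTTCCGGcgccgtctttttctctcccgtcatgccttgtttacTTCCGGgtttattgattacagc
In Pfdn6 the core occurred at -33 and at 9 from the start, in Pfdn2 at 14, and in Pfdn4 at -99 and, past the stretch shown, at 36. The Pfdn4 stretch also lies within Cyp24a1, a gene on the opposite strand, so its letters belong to both genes. The promoters of the alpha-type subunits Vbp1 and Pfdn5 held no match to CCGGAA. That of Vbp1 held 3 matches to the CCAAT box (CCAAT), which was in 37.4% of all promoters and in 1 of the 5 here. The GC box (GGGCGG) was in 3 of the 5, those of Pfdn5, Pfdn2 and Pfdn4, and in 35.7% of all promoters. The E-box CACGTG was in 0 of the 5 and in 7.15% of all promoters, and the heat shock element GAANNTTC in 0 of the 5 and in 7.86%. The motifs were picked with the sequences already read, and a match describes letters only.

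All 6 subunits were well expressed, at levels that spanned a 4.49-fold range (Pfdn5 over Pfdn4, the mean over 8 samples of the TPM ratio within each sample). Fold values between subunits given below are the same kind of mean. Because TPM is scaled for length, levels can be set side by side between subunits, and this comparison within samples is independent of the contrast by which the genes were selected. A bias of one gene that is the same in every sample would not show in the spread between samples. Pfdn5 was the highest, at a mean of 153.6 TPM over the 8 samples, followed by Pfdn6 (136.4), Pfdn1 (109.9), Pfdn2 (100.6), Vbp1 (75.4) and Pfdn4 (34.3). Only 8.25% of the genes tested had a higher mean TPM than Pfdn5, whereas 37.1% were above Pfdn4. The alpha-type subunits thus took the first and the fifth place in this order.

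Every neighbouring pair in the order differed beyond the spread between samples. All 15 pairs were compared by an exact two-sided sign-flip test of the within-sample difference of log2(TPM + 1), whose smallest possible p is 0.0078 with 8 samples, and all 15 had a Benjamini-Hochberg adjusted p under 0.05. In 14 pairs the order was the same in 8 of 8 samples (exact sign-flip test, adjusted p = 0.0084). The closest call was Pfdn5 over Pfdn6, a difference of 0.17 ± 0.11 on the log2 scale (SD, n = 8), which held in 7 of 8 samples (exact sign-flip test, adjusted p = 0.016). The exception was the fourth exposed sample, in which Pfdn5 was at 131.3 TPM and Pfdn6 at 138.2 TPM. The steadiest pair was Pfdn6 over Pfdn1, 1.24-fold, with an SD of only 0.025 on the log2 scale across the 8 samples. Vbp1 lay 2.21-fold above Pfdn4, the widest step between neighbours, while Pfdn1 lay 1.09-fold above Pfdn2, the narrowest. Each subunit has transcripts of several lengths, from 330 to 1062 bases in Pfdn5 and from 630 to 1595 bases in Vbp1, and a share of reads given to another transcript would move its TPM.

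Of the alpha-type subunits, Vbp1 was slightly higher in exposed cells. Vbp1 was at 74.2, 72.1, 75.5 and 72.4 TPM in the controls and at 80.3, 72.8, 80.9 and 74.7 TPM in the exposed samples. The first and the third exposed sample stood above every control, while the second lay among them and the fourth (74.7 TPM) below the third control (75.5 TPM). Its mean went from 73.6 ± 1.61 TPM to 77.2 ± 4.05 TPM (SD, n = 4 each), a difference of 0.07 on the log2(TPM + 1) scale with a standard error of 0.039. With 1 sample left out in turn, the difference ran from 0.044 (without the third exposed sample) to 0.095.

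Pfdn5 was the only subunit with a lower mean in exposed cells. It was at 146.6, 150.4, 160.3 and 161.6 TPM in the controls and at 168.0, 160.8, 149.8 and 131.3 TPM in the exposed samples. The exposed samples thus included both the highest and the lowest of the 8 values, and the control values all fell between them. The difference was -0.03 with a standard error of 0.069, from 154.7 ± 7.37 TPM to 152.5 ± 15.9 TPM (SD, n = 4 each). The coefficient of variation of Pfdn5 among exposed samples was the widest of the subunits. Without the fourth exposed sample, the difference of Pfdn5 was 0.044 and all 6 subunits had a higher mean in exposed cells.

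Among the beta-type subunits, Pfdn1 was the only subunit whose groups did not overlap. It was at 104.1, 105.6, 105.1 and 110.1 TPM in the controls and at 115.2, 117.1, 111.7 and 110.2 TPM in the exposed samples. The gap was narrow, since the fourth exposed sample (110.16 TPM) stood just over the fourth control (110.09 TPM). The difference was 0.10 with a standard error of 0.030, from 106.2 ± 2.64 TPM to 113.6 ± 3.19 TPM (SD, n = 4 each). This 1 of 6 subunits stands beside 8.01% of all genes tested that were higher in exposed cells without overlap.

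Pfdn6 had a difference of 0.11 with a standard error of 0.031, the largest of the subunits by a narrow lead over Pfdn4 (0.107 against 0.101). Another subunit had a larger one in 5 of the 8 comparisons that left out 1 sample. It was at 128.2, 128.9, 129.5 and 138.8 TPM in the controls and at 145.4, 141.5, 141.0 and 138.2 TPM in the exposed samples. The fourth control stood apart from the other 3 controls, the fourth exposed sample lay just under it, and the other 3 exposed samples stood above every control. The mean went from 131.4 ± 4.99 TPM to 141.5 ± 2.93 TPM (SD, n = 4 each). Even so, 11.9% of all genes tested had a larger difference than Pfdn6.

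Pfdn2, which like Pfdn6 also serves the prefoldin-like complex, differed by 0.08 with a standard error of 0.043. Its TPM was 100.9, 97.9, 100.2 and 92.0 in the controls and 110.4, 103.1, 97.2 and 103.3 in the exposed samples. The third exposed sample lay below 3 of the controls, and the other 3 exposed samples stood above every control. Its mean was 97.7 ± 4.05 TPM in the controls and 103.5 ± 5.39 TPM in exposed cells (SD, n = 4 each). The difference was 0.050 without the first exposed sample, 0.053 without the fourth control, and at most 0.11 with any other sample left out.

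Pfdn4, the least abundant subunit, differed by 0.10 with a standard error of 0.058. Its TPM was 33.9, 31.6, 31.0 and 35.8 in the controls and 34.4, 37.1, 37.7 and 32.9 in the exposed samples. The second and the third exposed sample stood above every control, whereas the first and the fourth were within the control range. Its mean was 33.1 ± 2.21 TPM in the controls and 35.5 ± 2.25 TPM in exposed cells (SD, n = 4 each), and its coefficient of variation among controls, 6.67%, was the widest of the 6.

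**Figure D1:**
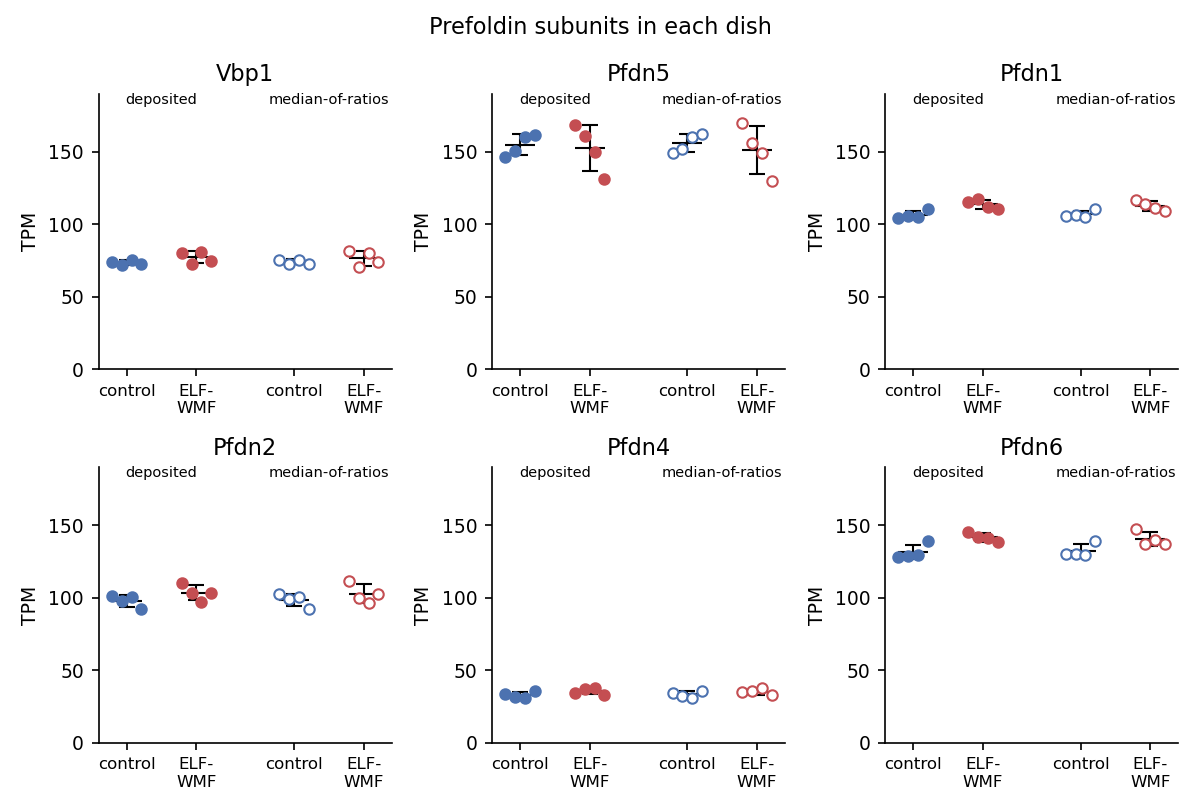
TPM of each prefoldin subunit in the 4 control samples (blue) and the 4 ELF-WMF samples (red), with samples 1 to 4 from left to right in each group, as deposited (filled) and after median-of-ratios scaling (open); dashes and bars give the mean and SD, and all axes start at 0. The groups overlap in every panel except Pfdn1 as deposited, and the exposed samples of Pfdn5 spread from 131.3 to 168.0 TPM.

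Taken over the 6 subunits, 5 had a higher mean in exposed cells, and the median difference was 0.09 on the log2(TPM + 1) scale, beside 0.03 over all genes tested, of which 63.7% were higher. The mean log2(TPM + 1) of the 6 was 6.50 ± 0.025 in controls and 6.57 ± 0.053 in exposed cells (SD, n = 4 each). The summed TPM of the 6 was 587.9, 586.5, 601.7 and 610.6 in the controls and 653.6, 632.4, 618.4 and 590.7 in the exposed samples. The first 3 exposed samples stood above every control, and the fourth lay within the control range.

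The differences of all 6 subunits moved down when the samples were put on a common scale. TPM is a share of a fixed total, and the 37 genes of the mitochondrial genome took 8.69% to 9.42% of it in controls but 5.99% to 7.69% in exposed cells, so that other genes had more of the total left in the exposed samples. In median-of-ratios scaling each sample is divided by the median, over genes above 0 in every sample, of the ratio of its TPM to the gene's mean on the log scale. The divisor was 0.985 to 1.0003 in controls and 0.988 to 1.03 in exposed samples. It did not simply follow the mitochondrial share, since the first exposed sample, at 6.96%, had the divisor of 0.988. The part of the mitochondrial share in this scaling was not tested. After this scaling the median of all genes tested was 0.005 and 52.8% of them were higher. The prefoldin differences became 0.04 for Vbp1, -0.05 for Pfdn5, 0.07 for Pfdn1, 0.06 for Pfdn2, 0.08 for Pfdn4 and 0.08 for Pfdn6. The same 5 subunits were still higher, and the median difference of the 6 was 0.07. Pfdn1 then overlapped, because the fourth exposed sample (109.0 TPM) lay below the fourth control (110.3 TPM). Thus 0 of 6 subunits were free of overlap, beside 4.58% of all genes. When the genes of the mitochondrial genome were instead left out and TPM rescaled to the same total, the mean difference of the 6 went from 0.071 to 0.042. The single differences were then 0.038 for Vbp1, -0.055 for Pfdn5, 0.066 for Pfdn1, 0.052 for Pfdn2, 0.073 for Pfdn4 and 0.077 for Pfdn6, and the median of all genes was -0.0015.

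Against all genes, the subunits stood in the upper part of the differences, but far from its end. With TPM as deposited, 13.3% of all genes tested had a larger difference than Pfdn4, 15.2% than Pfdn1, 20.0% than Pfdn2 and 27.1% than Vbp1, while 73.3% had a larger one than Pfdn5. These percentages moved by less than 1 point after median-of-ratios scaling. The coefficients of variation of the subunits ran from 2.19% (Vbp1) and 2.48% (Pfdn1) to 6.67% (Pfdn4) in controls, where the median over all genes was 5.16%. Among exposed samples they ran from 2.07% (Pfdn6) and 2.81% (Pfdn1) to 10.5% (Pfdn5), with a median over all genes of 5.65%. Both medians take in genes of every level from the TPM limit up and are not matched to the level of the subunits.

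**Figure D2:**
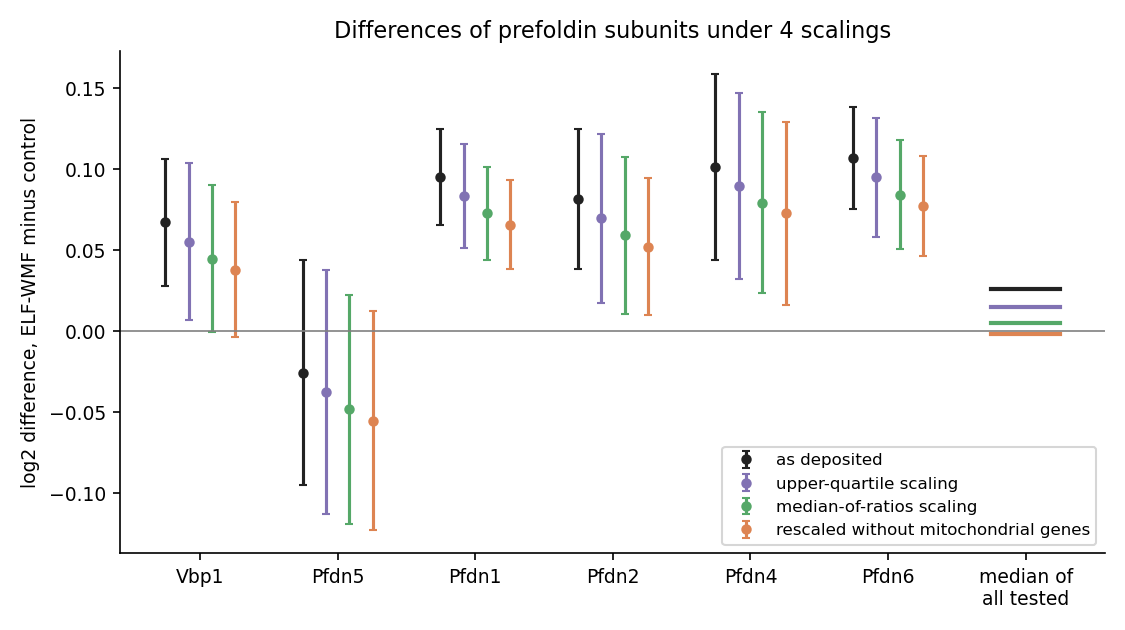
Difference of mean log2(TPM + 1), ELF-WMF minus control, for each prefoldin subunit under 4 scalings of the samples, with bars for the standard error, and short lines at the right for the median over all genes tested. From left to right in each group of points the differences move down, and Pfdn5 lies below 0 and the other 5 subunits above 0 under each scaling.

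Ratios between subunits within a sample do not move with any scaling of that sample. Pfdn5 made up 25.9% ± 0.79 of the summed TPM of the 6 in controls and 24.4% ± 1.58 in exposed cells (SD, n = 4 each), a difference of -1.52 percentage points. Without the fourth exposed sample it was -0.80, and with any 1 sample left out it ran from -1.96 to -0.80. Its share was 24.9%, 25.6%, 26.6% and 26.5% in the controls and 25.7%, 25.4%, 24.2% and 22.2% in the exposed samples. The first and the second exposed sample lay within the control range, and the third and the fourth below it. The other shares differed less between the groups: 12.3% and 12.4% for Vbp1, 17.8% and 18.2% for Pfdn1, 16.4% and 16.6% for Pfdn2, 5.54% and 5.70% for Pfdn4, and 22.0% and 22.7% for Pfdn6. Set against the mean log2 level of the other 5, Pfdn5 was lower in exposed cells by a difference of -0.12, and the groups overlapped for every one of the 6.

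The balance between the subunit types was on average lower on the alpha side in exposed cells, though not in every sample. Pfdn5 is part of the alpha-type pair, so this ratio holds the Pfdn5 difference by construction. Against the mean of the other subunits, Vbp1 differed by only -0.005 between the groups and Pfdn5 by -0.12. The mean log2 TPM of the alpha-type pair exceeded that of the 4 beta-type subunits by 0.38 ± 0.046 in controls and 0.30 ± 0.068 in exposed cells (SD, n = 4 each), with overlap. In the second exposed sample this excess was 0.28. There Pfdn5 was within the control range against the mean of the other subunits (0.91), and Vbp1 was at its lowest (-0.46). The ratio of the alpha-type subunits to each other, Pfdn5 over Vbp1 on the log2 scale, was 1.07 ± 0.073 in controls and 0.98 ± 0.15 in exposed cells. Pfdn2 and Pfdn6, which the prefoldin-like complex shares, exceeded the other 4 by 0.51 ± 0.037 in controls and 0.55 ± 0.068 in exposed cells, again with overlap.

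**Figure D3:**
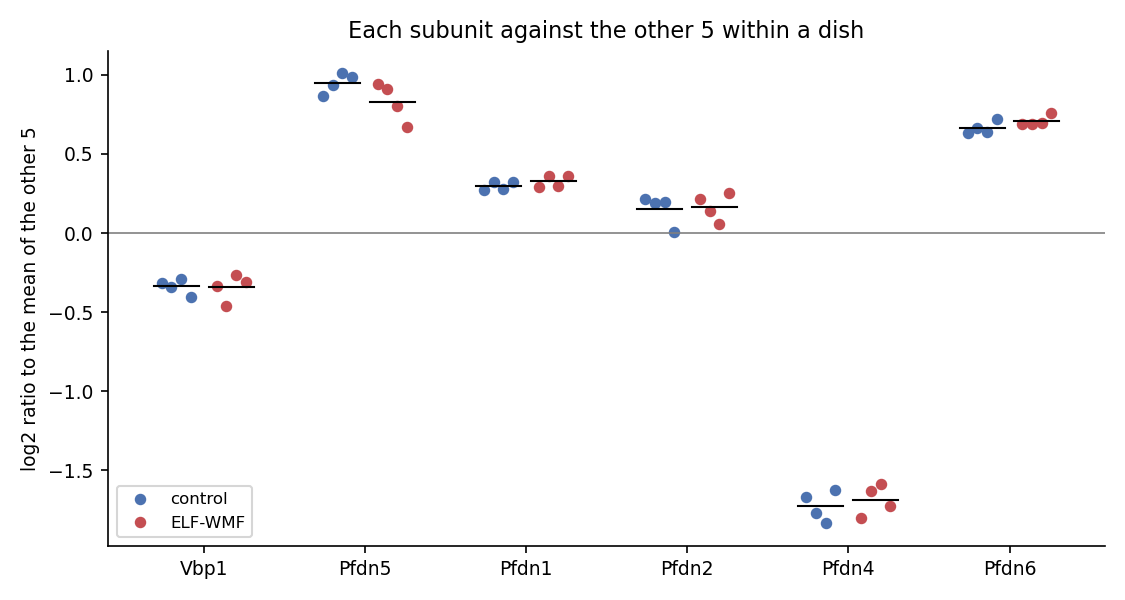
Log2 TPM of each prefoldin subunit minus the mean log2 TPM of the other 5 in the same sample, for controls (blue) and ELF-WMF (red), with samples 1 to 4 from left to right and a line at each group mean. The order of the subunits is alike in both groups, and the lowest exposed sample of Pfdn5 (0.67) lies under the lowest control (0.86).

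Across the 8 samples the subunits varied together only in part. Pearson's r of log2(TPM + 1) over the 15 pairs ran from -0.12 (Pfdn2 with Pfdn4) to 0.94 (Pfdn1 with Pfdn6), with a median of 0.33, and was above 0 in 14 pairs. After median-of-ratios scaling the range was -0.21 to 0.93 with the same pairs at its ends. These values describe 8 samples in 2 groups that share the group difference and the scaling, and no test was made of them.

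The genes whose levels ran closest to the mean of the 6 were Tra2b, a splicing regulator, with r = 0.970, and Dnaja3, a mitochondrial cochaperone of the Hsp70 family, with r = 0.960. Next came Bsg, the membrane glycoprotein basigin (r = 0.954), Crtap, which takes part in the hydroxylation of collagen (r = 0.953), and Rsl24d1, a factor of ribosome assembly (r = 0.952). They are the 5 highest of all genes tested, over 8 samples, and their r stayed between 0.936 and 0.968 after median-of-ratios scaling. Because they were picked as the highest and the samples share the group difference, these values are a description. No test was made of them. Tra2b was at 122.1 ± 1.35 TPM in controls and 128.7 ± 4.32 TPM in exposed cells (SD, n = 4 each).

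Reads from other loci could reach the subunits' values at few places. In GENCODE M21 (GRCm38), the processed pseudogene Gm5644 matched Pfdn5 at 97.0% over 465 bases, but was at 0 to 0.41 TPM. Gm13612 matched Pfdn6 at 96.7% over 243 bases and was at 0 to 0.30 TPM. The end of Pfdn5 (chromosome 15, 102326116 to 102331873, plus strand) overlaps Myg1 on the same strand by 165 bases, and Myg1 was at 64.4 ± 1.54 TPM in controls and 66.4 ± 3.62 TPM in exposed cells (SD, n = 4 each). Reads in that overlap cannot be told apart by strand. The genes that overlap Pfdn2, Pfdn4 and Pfdn6 were at most at 1.41 TPM.

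The starts of Pfdn2 and Pfdn6 lie close to those of genes on the opposite strand, and that of Pfdn4 lies within one. Cyp24a1 (170482708 to 170497145, minus strand) overlaps Pfdn4 by 718 bases and holds the whole Pfdn4 stretch shown above. It was at most at 0.01 TPM. Nit1 (an amidase) begins 23 bases from the start of Pfdn2 on the opposite strand, and was at 45.1 ± 1.93 TPM in controls and 44.6 ± 0.66 TPM in exposed cells. Wdr46, which acts in ribosome assembly, begins 316 bases from Pfdn6 on the opposite strand (Pfdn6 lies on chromosome 17, 33938821 to 33940343, minus strand), and was at 37.3 ± 0.70 TPM and 40.1 ± 2.04 TPM (SD, n = 4 each). In Wdr46 every exposed sample (38.3 to 42.9 TPM) stood above every control (36.4 to 38.1 TPM), by a narrow gap (38.25 against 38.05 TPM). Of all genes tested, 8.01% were likewise higher in exposed cells without overlap. Wdr46 was read only in TPM as deposited.

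The other genes of the folding route were read from 5 lists, none of whose genes passed the threshold when p-values were adjusted over all genes. With TPM as deposited, limma called 0 of 12122 genes at an adjusted p under 0.05 (0.00%). At an unadjusted p under 0.05 it found 1451 higher (12.0%) and 443 lower (3.65%). After median-of-ratios scaling, 1 gene passed the adjusted threshold (0.00825%), a gene of no list here, and the unadjusted shares were 6.79% higher and 5.52% lower. The shares of genes higher without overlap were 8.01% as deposited and 4.58% after scaling. The counts of each list stand beside these shares and are not tests of the list.

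The CCT chaperonin, to which prefoldin passes its clients, had differences of nearly one size. All 8 subunits had a higher mean in exposed cells, with a median of 0.09 (0.07 after median-of-ratios scaling), the largest being Cct8 at 0.12 and the smallest Tcp1 at 0.09. At an unadjusted limma p under 0.05, 8 of 8 were higher as deposited and 7 of 8 after scaling. The groups did not overlap in 7 of 8 as deposited (8.01% of all genes) and in 2 of 8 after scaling (4.58%). Cct8 was at 280.7 ± 3.93 TPM in controls and 304.6 ± 6.28 TPM in exposed cells, and Tcp1 at 431.2 ± 8.39 TPM and 457.6 ± 11.9 TPM (SD, n = 4 each). In TPM, each CCT subunit was thus above every prefoldin subunit.

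The actins and tubulins that these chaperones fold gave a like median. Of 14 genes listed, 13 were tested, Tubb3 being below the TPM limit, and 12 of the 13 had a higher mean in exposed cells, with a median of 0.10 (0.07 after scaling). At an unadjusted limma p under 0.05, 11 were higher as deposited and 10 after scaling, and the groups did not overlap in 10 (8.01% of all genes) and in 7 (4.58%). The largest difference was in Tuba4a, an alpha-tubulin, at 0.15, from 341.5 ± 9.41 TPM to 377.9 ± 8.91 TPM (SD, n = 4 each). The smallest was in Tubb4a, a beta-tubulin, at -0.01, from 9.31 ± 0.59 TPM to 9.27 ± 0.47 TPM.

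The prefoldin-like complex and its R2TP partners were mixed. Of 9 genes, 5 had a higher and 4 a lower mean in exposed cells, with a median of 0.07 (0.04 after scaling). At an unadjusted limma p under 0.05, 3 were higher and 0 lower under either scaling. Rpap3, the scaffold of R2TP, had the largest difference, 0.14, from 27.2 ± 1.43 TPM to 30.1 ± 1.07 TPM (SD, n = 4 each). Uxt, an alpha-type prefoldin-like subunit, had the smallest, -0.08, from 53.0 ± 7.44 TPM to 50.0 ± 4.21 TPM.

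Of the 7 genes listed under tubulin folding cofactors, among them Tbcel and Arl2, 6 had a higher mean in exposed cells (5 after scaling), with a median of 0.06 (0.04 after scaling). At an unadjusted limma p under 0.05, 3 were higher under either scaling, and 0 were lower as deposited and 1 after scaling. Their differences ran from -0.11 for Tbce, which binds alpha-tubulin, to 0.16 for Tbcd, which binds beta-tubulin. Tbcd was at 37.1 ± 2.48 TPM in controls and 41.6 ± 2.03 TPM in exposed cells, and Tbce at 26.6 ± 1.91 TPM and 24.7 ± 0.58 TPM (SD, n = 4 each). The phosducin-like cofactors of CCT, 3 genes, had a median of 0.05 (0.03 after scaling). They ran from -0.01 for Pdcl3 to 0.08 for Pdcl, and 0 of the 3 had an unadjusted limma p under 0.05.

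**Figure D4:**
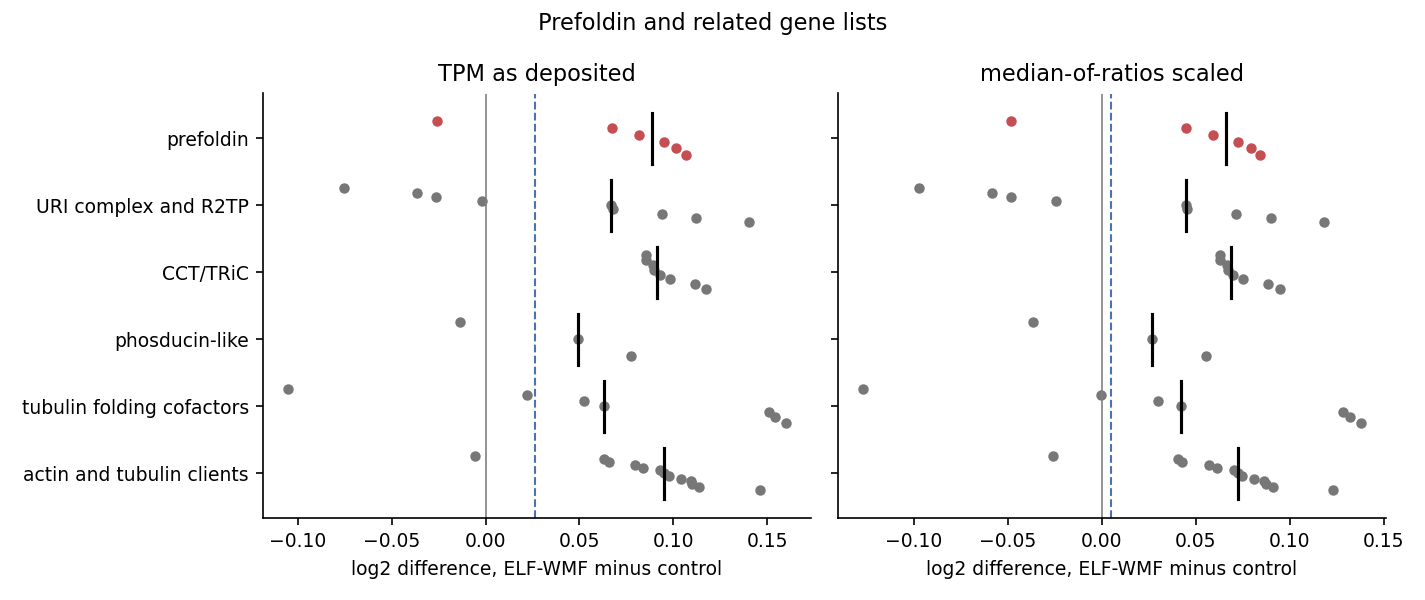
Difference of mean log2(TPM + 1), ELF-WMF minus control, for each tested gene of prefoldin (red) and of 5 related lists (grey), with TPM as deposited (left) and after median-of-ratios scaling (right); black bars are list medians and the dashed line is the median over all genes tested. Prefoldin, CCT and the actins and tubulins have medians of 0.09, 0.09 and 0.10 at the left and of 0.07 each at the right.

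The identity of the cells was checked on marker genes. Of 8 hepatocyte markers, 7 were at 1 TPM or more in every sample, among them Alb (52.6 to 58.2 TPM in controls and 46.1 to 53.0 TPM in exposed samples) and Hnf4a (180.3 to 218.0 TPM), while Afp ran from 0.48 to 1.33 TPM. Of 4 cholangiocyte markers, 3 were also at 1 TPM or more in every sample, with Krt19 at 1101 to 1244 TPM and Epcam at most at 0.13 TPM. Of 5 markers of stellate cells or fibroblasts, 3 of endothelial cells and 3 of immune cells, 0 reached 1 TPM in every sample. The summed hepatocyte markers were at 5414 to 5674 TPM in controls and 5766 to 5975 TPM in exposed samples, without overlap, and those of cholangiocytes at 1203 to 1291 and 1218 to 1339 TPM. Among single genes tested, 8.01% were higher in exposed cells without overlap as deposited. Most of the hepatocyte sum came from the keratins Krt8 (2206 to 2280 TPM in controls and 2305 to 2431 TPM in exposed samples) and Krt18 (1825 to 1963 and 1992 to 2071 TPM), and Ttr did not share this shift (333.2 to 383.7 and 338.0 to 366.0 TPM). Alb, Apoa1 (4.01 to 5.29 and 3.12 to 4.76 TPM) and Afp had lower ranges in exposed samples, with overlap. Trf (807.8 to 857.3 and 808.9 to 892.3 TPM) and Hnf4a had higher ranges, also with overlap. The sum thus does not stand for the hepatocyte markers one by one. The part of these markers in the prefoldin differences was not tested. In bulk RNA, fewer cells of a type and less RNA per cell cannot be told apart.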

How the data were processed

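Per the labels, total RNA was made into stranded mRNA libraries (TruSeq) and read as paired ends on a NovaSeq, and the authors deposited 1 table of TPM per sample. The submitters' processing notes name Trimmomatic 0.39, STAR 2.7.4a, RSEM 1.3.3 and mm10, and the annotation is not given in the sources used here. TPM keeps no read depth, so the depth is unknown and no counting error or count-based test was possible. The design allowed for this, and limma 3.58.1 (R 4.3.3, eBayes with a trend) was run on log2(TPM + 1) for the 12122 genes that reached 1 TPM in 4 samples or more, with group as the only term and Benjamini-Hochberg adjustment. A log2 difference on this scale understates the change of low genes. The fit was tested on simulated data, with changes larger than any difference of the subunits or listed genes here. What it would find at their size was not tested. Exact sign-flip tests used Python 3.11.15. Gene identifiers were matched to GENCODE M21 (55141 of 55401), and copies were searched with BLAST+ 2.17.0 (at least 90% identity over 150 bases). Promoters came from a RefSeq table, from which those of 5 of the 6 subunits were read, and not that of Pfdn1.

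The subunits, the gene lists and the tests were chosen with earlier results of these data known. Genes named were the 6 subunits, the tested member of each list with the largest and with the smallest difference, and the 5 genes most correlated with the mean of the subunits. Genes near or like the subunits and the cell markers are named besides. Samples fall into 2 groups by the titles in the labels. At most 3.79% of values above 0 were equal between any 2 samples, so that each was counted as a sample of its own. Replicate numbers are shared by both groups but are not described as a pairing, and deviations of same-numbered samples from their group means had r of -0.042 to 0.026. Alternatives were other scalings, a pseudocount of 0.1, other TPM limits, the replicate number in the fit, and leaving out each sample. Added after seeing the data were each subunit against the other 5, the ratios between groups of subunits, and sums with near-identical copies.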

Additional observations from a re-analysis of the deposited data

Results flagged for a closer look

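The fourth control sample stood apart from the other controls in Pfdn6, at 138.8 TPM as deposited and at 139.1 TPM after median-of-ratios scaling. Its gap to the nearest other control took up 0.877 and 0.923 of the range of the controls, above the critical value of Dixon's test for 4 samples. Of 40 groups of values examined in this way, 2 were past the critical value, and chance alone gives about 1 in 20, or 2. Both are the same sample and gene.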

How the results depend on the processing

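Of 290 recomputed values, 273 kept their direction and moved by less than the SD between samples (counts by less than 1.5 times), 10 moved further and 7 changed sign. Some of the 273 could not move, such as differences under a replicate block or list medians under a TPM limit that changes no member. The number of genes with an adjusted p under 0.05, 0 with TPM as deposited, was 1 with median-of-ratios scaling, 1 with upper-quartile scaling, 1 with a TPM of at least 1 in every sample, and 0 to 6 when each sample was left out (2 without control replicate 2, 1 without control replicate 3 and 6 without ELF-WMF replicate 2). The genes without overlap, 1196 in either direction, were 1500 to 1918 when 1 sample was left out, a construction that leaves fewer samples to overlap. The largest counts were without ELF-WMF replicate 1 (1918) and ELF-WMF replicate 4 (1843). Rescaling without mitochondrial genes brought the mean of the 6 subunits from 0.071 to 0.042, the difference of Pfdn5 from -0.026 to -0.055, the median of all genes to -0.0015, that of CCT to 0.06 and that of the phosducin-like cofactors to 0.02. The difference of Pfdn5 ran from -0.074 to 0.044 with 1 sample left out, and was above 0 only without ELF-WMF replicate 4. The small differences in share changed sign for Vbp1 without control replicate 4 (-0.11 percentage points), ELF-WMF replicate 3 (-0.18) and ELF-WMF replicate 4 (-0.040), in a range up to 0.34, and for Pfdn2 without control replicate 4 (-0.23) and ELF-WMF replicate 4 (-0.082), in a range up to 0.51. The cause of these shifts was not tested. With a replicate block, the genes with an unadjusted p under 0.05 were 1889 and those with an adjusted p under 0.05 were 0, and the mean difference of the subunits was 0.07. That mean was fixed in advance: each number occurs in both groups, so a block can move only the error of a difference. No 2 samples with the same number were each the closest to the other across the groups. All 15 pairs of subunits kept an adjusted p under 0.05 with each sample left out. Without read counts, the precision of a single TPM value is unknown.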
